A study of Rattus norvegicus with 12 samples.

Results

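Mature skeletal muscle genes are the genes that build the contractile apparatus of the adult muscle fibre and supply it with calcium and energy. The 38 members were taken from a list of such genes and were located on the arrays by gene symbol, and where a gene had several probe sets the one with the highest mean signal was used. Of the 38, 37 had a probe set that the array annotation assigned to 1 gene, out of 14217 genes with such a probe set in the whole series, and Xirp2 was not analysed here. The RNA came from fracture hematoma, the clotted blood and early repair tissue that fills a bone gap, and was hybridized to 1-colour Affymetrix rat genome arrays.

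The hematoma was harvested on day 3 after an osteotomy of the left femur with a gap of 1.5 mm in female Sprague-Dawley rats. OSR rats were old (52 weeks) with semi-rigid fixation (fixator offset 15 mm), OR rats were old with rigid fixation (offset 7.5 mm), YSR rats were young (12 weeks) with semi-rigid fixation, and YR rats were young with rigid fixation. Each of the 4 groups had 3 arrays, and each array held RNA pooled from 3 animals, so that differences between single animals cannot be seen. No array of muscle and no array of unoperated tissue was analysed here.

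A muscle fibre contracts when calcium released from its internal store lets the myosin heads of the thick filament pull on the actin of the thin filament, and both filaments are anchored in the sarcomere at the Z disc. Fast-twitch and slow-twitch fibres carry different copies of many of these proteins, and muscles differ in their mix of fibres. The femoral shaft is wrapped in thigh muscle, so that tissue taken from a gap in it can include muscle. In bulk RNA, fewer muscle cells in a sample and less muscle RNA per cell cannot be told apart.

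All 12 arrays had been scaled to a trimmed mean signal of 500.2, and their median signals lay between 126.9 and 167.5. The arrays were fitted together, and signals are given as log2 of the deposited signal. The Gapdh 3′ control probe set exceeded the 5′ one by 6.69 (log2) on YSR array 1 and by 2.95 on OR array 1, against 0.33 to 1.59 on the other 10 arrays. In tests of 31042 probe sets, 2 passed an adjusted p of 0.05 for age averaged over fixation and 0 for fixation averaged over age.

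The muscle genes varied between single arrays far more than most probe sets did. The median range of a member over the 12 arrays was 6.34 (log2), against 1.72 over all probe sets tested and 0.91 over probe sets at or above the median level. Measured as the deviation of each gene from its own mean over the 12 arrays, the median over the 37 members was -2.85, 2.04 and 0.99 on the OSR arrays, 0.80, -3.21 and -0.58 on the OR arrays, 1.41, 0.31 and -0.21 on the YSR arrays, and 1.64, 0.60 and 0.55 on the YR arrays. OSR array 1 and OR array 2 therefore stood far below the other 10, each in a group whose other arrays were higher. They were the 2 lowest arrays for 29 of the 37 members (78.4%), against 4.0% of all probe sets tested and 6.02% of those at or above the median level. On OSR array 1 and on OR array 2, 25 and 26 of the 37 members lay under the array's own median of all probe sets, against 2 to 10 members on the other arrays. No array stood apart in the median of all probe sets, which deviated by -0.04 to 0.11.

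**Figure D1:**
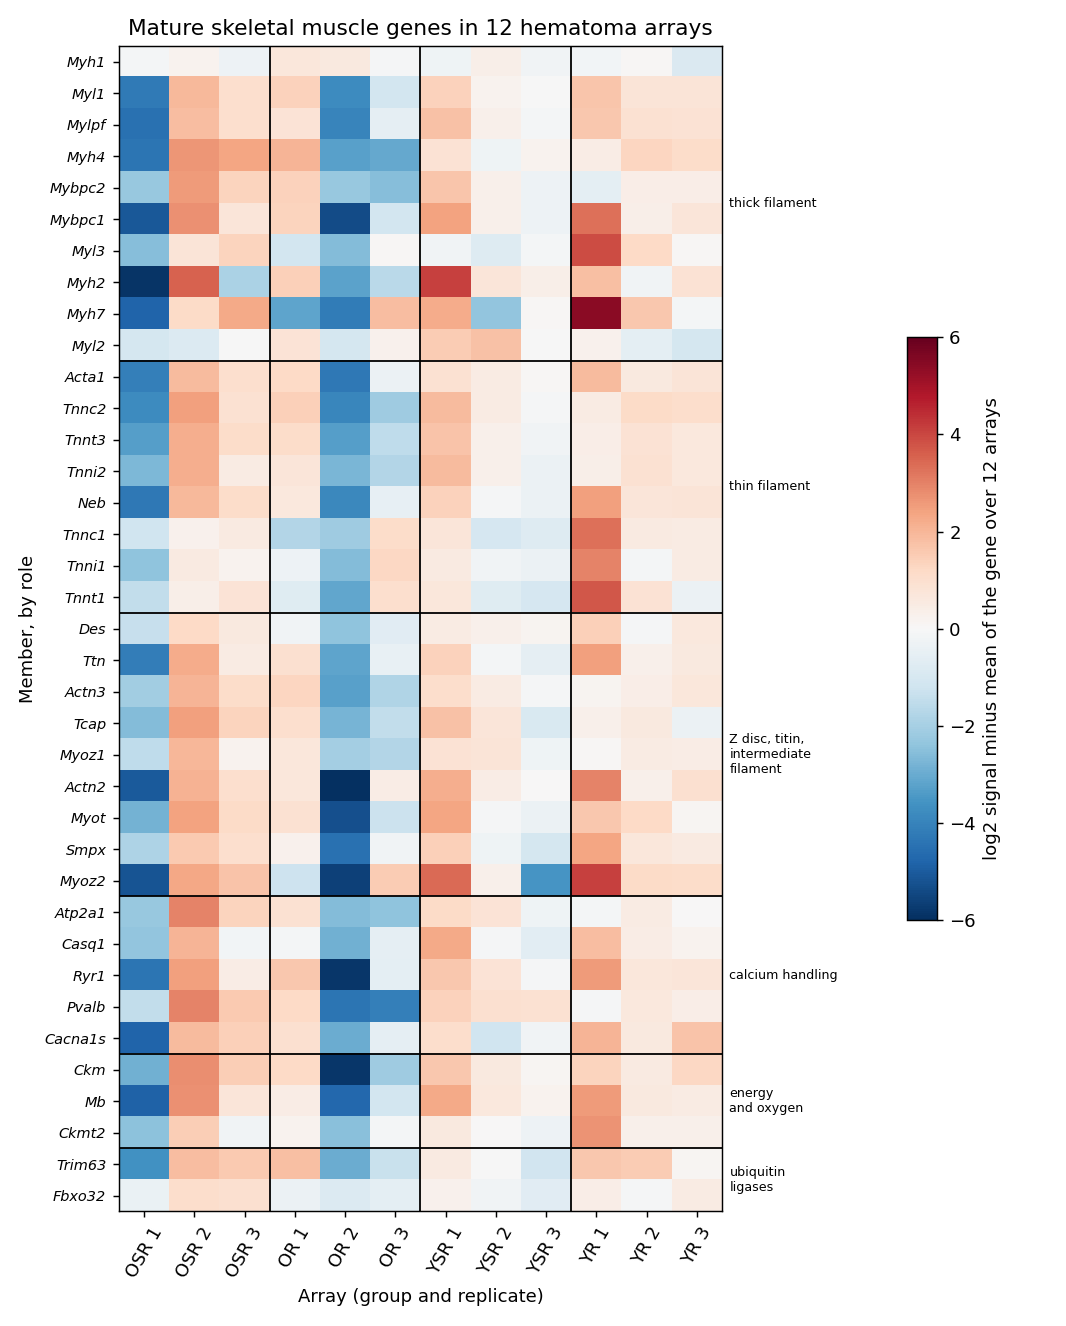
The heat map gives, for each of the 37 measured members (rows, by role) and each array (columns, by group and replicate), the log2 signal minus the gene's mean over 12 arrays, with red above and blue below that mean. OSR array 1 and OR array 2 form blue columns across nearly all rows except Myh1, and YR array 1 is the most strongly red for the slow fibre genes.

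The highest values were also spread over groups. OSR array 2 was the highest array for 17 members and YR array 1 for 16, YSR array 1 for 2, and YSR array 2 and OR array 1 for 1 each. The mean of the array medians was 0.06 ± 2.57 in OSR, -1.0 ± 2.04 in OR, 0.50 ± 0.83 in YSR and 0.93 ± 0.62 in YR (SD, n = 3 each). The arrays of the old groups spanned the whole range, from -3.21 to 2.04, while the 6 young arrays stayed between -0.21 and 1.64.

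Of the 8 thin filament genes, 7 had OSR array 1 and OR array 2 as their 2 lowest arrays. Acta1, the actin of skeletal muscle thin filaments, had log2 signals of 9.23, 15.23 and 14.34 in OSR, 14.53, 9.06 and 13.00 in OR, 14.27, 13.84 and 13.42 in YSR, and 15.23, 13.96 and 14.13 in YR. The highest array held 72.1 times the signal of the lowest. Each old group held 1 very low array, and the groups also overlapped on their other arrays. Nebulin (Neb), which runs along the thin filament, had a range of 6.73, and the 6 troponin subunits, which confer calcium sensitivity on the filament, had ranges of 4.92 to 6.81.

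The thick filament genes divided into 8 that followed this order of arrays in large part and a pair that did not. Myl1, an essential light chain of fast myosin, gave 8.09, 14.29 and 13.35 in OSR, 13.70, 8.54 and 11.24 in OR, 13.74, 12.57 and 12.30 in YSR, and 13.98, 13.11 and 13.12 in YR. Myh2, the heavy chain of fast oxidative fibres, gave 1.2, 10.65 and 5.18 in OSR, 8.55, 3.89 and 5.46 in OR, 11.22, 7.83 and 7.46 in YSR, and 8.90, 6.89 and 7.97 in YR. Both were lowest on OSR array 1, but Myh2 was highest on YSR array 1 and was also low on the third OSR array, where most members lay above their mean. The light chains Mylpf (fast) and Myl3 (slow) had ranges of 6.34 and 6.53, and Mybpc1 and Mybpc2, slow and fast forms of myosin-binding protein C, had ranges of 8.64 and 5.10. Mybpc1 was not counted among the 7 slow members used below.

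The exceptions among the thick filament genes were Myh1 and Myl2. The probe set used for Myh1, annotated to the heavy chain of fast type IIX fibres, gave 13.21, 13.53 and 13.02 in OSR, 14.01, 13.90 and 13.24 in OR, 13.06, 13.68 and 13.12 in YSR, and 13.16, 13.37 and 12.45 in YR. It was higher on OR array 2 than on any array but OR array 1, and its range was 1.57. All 5 probe sets annotated to Myh1 alone ran the same way, with correlations of -0.44 to -0.22 with the median deviation of the other members over the 12 arrays. Their values went against the label, and by themselves they are no guide to fibre type. Myh1 was still counted among the 14 fast members below, as the only fast member higher in OR than in YR (0.73). For Myl2, the regulatory light chain of slow and heart muscle, the probe set used ranged from 4.18 to 7.0, and a dimmer one reached 9.21 on YR array 1, so that its 2 probe sets disagreed.

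The myosin heavy chain genes are closely alike in sequence, and a probe set for a member of that family can hold signal from another. For 7 members more than 1 probe set was assigned to the gene, and the one with the highest mean was used. The other probe sets of Tnni1, Tnnt3, Mybpc2, Myh7 and Neb correlated with the remaining members at 0.42 to 0.85. The lowest of these values was that of Myh7. The used and the dimmer Myh7 probe set were both highest on YR array 1, at 12.49 and 9.05. On YSR array 1 they disagreed, at 9.33 and 2.51, against means of 7.09 and 4.53.

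In the Z disc and the filaments anchored to it, 8 of 9 measured genes had the same pair of lowest arrays. Titin (Ttn), the molecular spring of the sarcomere, gave 6.66, 13.00 and 11.28 in OSR, 11.75, 7.65 and 10.33 in OR, 12.18, 10.70 and 10.25 in YSR, and 13.24, 11.11 and 11.39 in YR. Desmin (Des), the intermediate filament that ties myofibrils together, gave 10.56, 13.15 and 12.53 in OSR, 11.77, 9.57 and 11.28 in OR, 12.44, 12.27 and 12.11 in YSR, and 13.38, 11.89 and 12.58 in YR. Desmin had the smallest range of this group, 3.81, and all 3 OR arrays lay under all 3 YR arrays.

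The largest ranges of this group belonged to Myoz2 and Actn2. Myoz2, a calcineurin-binding Z disc protein of slow and heart muscle, gave 0.93, 8.40 and 7.79 in OSR, 4.86, 0.49 and 7.62 in OR, 9.51, 6.41 and 2.54 in YSR, and 10.19, 7.26 and 7.19 in YR. Actn2, an actin cross-linker of the Z disc, gave 3.28, 10.43 and 9.35 in OSR, 9.0, 2.29 and 8.75 in OR, 10.50, 8.75 and 8.36 in YSR, and 11.28, 8.61 and 9.26 in YR. No detection call was used, and signals this low are not read as absence of the transcript. Actn3, Tcap, Myoz1, Myot and Smpx ranged over 4.03 to 7.65.

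The 3 genes of energy and oxygen all had the same 2 lowest arrays, and 3 of the 5 calcium handling genes did, while Atp2a1 and Pvalb were lowest on OR arrays 2 and 3. Atp2a1, the calcium pump of fast fibres, gave 8.28, 13.53 and 11.87 in OSR, 11.45, 7.95 and 8.15 in OR, 11.68, 11.39 and 10.28 in YSR, and 10.46, 11.04 and 10.58 in YR. Ryr1, the channel that releases calcium from the store, gave 3.46, 10.29 and 8.31 in OSR, 9.45, 2.0 and 7.26 in OR, 9.44, 8.68 and 7.78 in YSR, and 10.38, 8.53 and 8.55 in YR. On OR array 3 Atp2a1 was slightly under OSR array 1, whereas Ryr1 was near its mean there. Ckm, the creatine kinase of muscle, gave 7.66, 13.33 and 12.01 in OSR, 11.75, 4.72 and 8.42 in OR, 12.16, 11.15 and 10.68 in YSR, and 11.87, 11.08 and 11.80 in YR. The calcium store protein Casq1, the voltage sensor Cacna1s and the calcium buffer Pvalb had ranges of 5.18 to 7.34. For Ckm the highest signal was 391 times the lowest, and the mitochondrial creatine kinase Ckmt2 and the oxygen store myoglobin (Mb) had ranges of 5.21 and 7.57 (log2).

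The 2 ubiquitin ligases of the list, which mark muscle proteins for breakdown in atrophy, differed in range. Trim63 gave 3.57, 9.07 and 8.78 in OSR, 9.01, 4.25 and 5.89 in OR, 7.77, 7.20 and 6.07 in YSR, and 8.83, 8.74 and 7.31 in YR. Trim63 thus had a range of 5.5 and the 2 low arrays of the structural genes, while the range of Fbxo32 was 1.87. Fbxo32 was dimmer, with a mean of 5.98 against 7.21, and was lowest on OR array 2 and highest on OSR array 2. Its correlation with the median deviation of the other members was 0.73, against 0.93 for Trim63.

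The members were set against each other to see how far they moved as a block. The correlation of each member with the median deviation of the others over the 12 arrays was above 0 for 36 of 37, with a median r of 0.92 and a median Spearman rho of 0.85. Without OSR array 1 and OR array 2 the median r was 0.80 over 10 arrays. The arrays share their scaling, and these correlations are a description. Acta1, Myl1, Mylpf, Mybpc1, Neb, Ttn, Mb and Myot kept an r of 0.94 to 0.97 without the 2 low arrays, while of the 7 slow members Tnnc1, Tnni1, Myh7, Tnnt1 and Myl3 had an r of 0.31 to 0.44, Myoz2 of 0.60 and Myl2 of -0.09.

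To see which kind of muscle the signals stood for, the fast genes Myh4 (heavy chain of the fastest fibres) and Tnnt3 (fast troponin T) were set beside the slow genes Myh7 (heavy chain of slow fibres and of heart) and Tnnt1 (slow troponin T). Their promoters are shown because these genes tell the fibre types apart, and the data show them moving apart on single arrays. The 250 bases before the start of each gene are from RefSeq on GRCr8, written 5′ to 3′ on the strand of the gene, at chr10:52421898-52422147 (plus strand) for Myh4, chr15:32438195-32438444 (minus strand) for Myh7 and chr1:78348785-78349034 (plus strand) for Tnnt1. Capitals mark matches, on either strand, to the E-box CANNTG bound by MyoD and related factors, to the MEF2 site and the CArG box, to the MCAT element CATTCC, and also to the core promoter motif TATAAA. In Myh4 a TATAAA match on the other strand lies inside the MEF2 site.
Myh4: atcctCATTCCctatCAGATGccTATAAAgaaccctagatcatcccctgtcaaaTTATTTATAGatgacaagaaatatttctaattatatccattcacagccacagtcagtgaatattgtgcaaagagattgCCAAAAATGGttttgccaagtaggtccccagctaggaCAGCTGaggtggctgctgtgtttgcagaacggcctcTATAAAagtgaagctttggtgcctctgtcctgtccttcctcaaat
Myh7: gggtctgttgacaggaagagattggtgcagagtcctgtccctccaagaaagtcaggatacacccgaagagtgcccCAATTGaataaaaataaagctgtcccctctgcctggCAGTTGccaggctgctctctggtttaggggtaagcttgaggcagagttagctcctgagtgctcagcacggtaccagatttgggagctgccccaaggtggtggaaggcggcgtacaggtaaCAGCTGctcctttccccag
Tnnt1: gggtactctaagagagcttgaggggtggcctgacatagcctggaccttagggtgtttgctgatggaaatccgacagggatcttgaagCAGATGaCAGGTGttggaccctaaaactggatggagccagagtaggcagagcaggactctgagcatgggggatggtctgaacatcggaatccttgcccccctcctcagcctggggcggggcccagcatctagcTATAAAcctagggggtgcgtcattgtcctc

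The Myh4 promoter held 2 E-boxes, 1 MCAT element, 1 MEF2 site, 1 CArG box and 3 matches to TATAAA, whereas the Myh7 window held 3 E-boxes and the Tnnt1 window 2 E-boxes and 1 TATAAA. Over the 32 member promoters in the table, an E-box occurred in 90.6%, against 65.2% of all 27457 promoters, the MCAT element in 21.9% against 11.8%, and TATAAA in 34.4% against 13.1%. A MEF2 site occurred in 21.9% against 1.74% of all promoters, and a CArG box in 9.38% against 1.50%. The members with a MEF2 site in this window were Myoz2, Xirp2, Ttn, Myh1, Myh4, Myoz1 and Smpx, and those with a CArG box were Myl3, Myh4 and Acta1. Between the fibre types, a MEF2 site occurred in 3 of 13 fast and 1 of 5 slow members, and an E-box in 10 of 13 fast and 5 of 5 slow members. Matches are letters in a window and not tested sites. The windows lie before the annotated gene starts, and whether muscle uses these starts was not checked, for Myh7 among others. Tnnt3, Myl2, Tnnc1, Tcap, Myot and Fbxo32 were not matched.

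Myh4 had log2 signals of 6.06, 13.07 and 12.83 in OSR, 12.49, 7.16 and 7.39 in OR, 11.30, 10.17 and 10.67 in YSR, and 10.89, 11.73 and 11.53 in YR. Tnnt3 had 7.88, 13.37 and 12.31 in OSR, 12.27, 7.90 and 9.66 in OR, 12.91, 11.51 and 11.0 in YSR, and 11.59, 12.07 and 11.82 in YR. Both fast genes were low on OSR array 1 and on OR arrays 2 and 3 and lay between 10.17 and 11.73 (Myh4) and between 11.0 and 12.91 (Tnnt3) on the 6 young arrays.

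Myh7 had log2 signals of 2.26, 8.24 and 9.37 in OSR, 3.94, 2.91 and 8.96 in OR, 9.33, 4.71 and 7.14 in YSR, and 12.49, 8.72 and 6.96 in YR. Tnnt1 had 6.64, 8.47 and 8.94 in OSR, 7.36, 5.0 and 9.11 in OR, 8.78, 7.37 and 7.08 in YSR, and 11.81, 8.97 and 7.74 in YR. Both slow genes were highest on YR array 1 and low on OR array 2 and OSR array 1, and Myh7 was also low on OR array 1, where Myh4 was high. The ranges were 7.02 for Myh4, 5.49 for Tnnt3, 10.23 for Myh7 and 6.81 for Tnnt1.

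**Figure D2:**
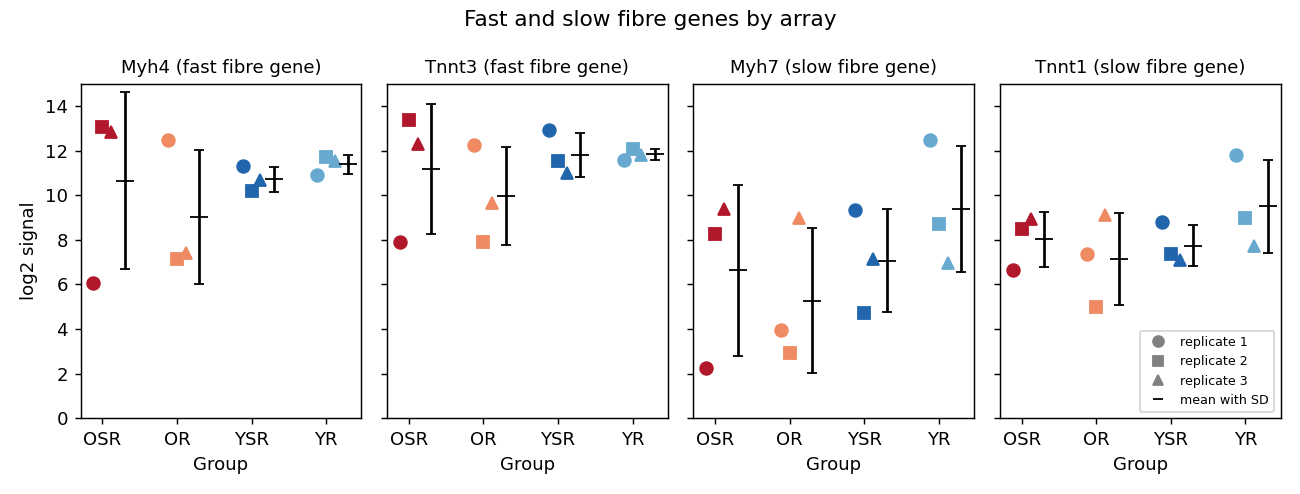
Each panel gives the log2 signal (vertical axis) of a fibre gene on the 3 arrays of the OSR, OR, YSR and YR groups (horizontal axis), with symbols for the replicate number and a black bar for the group mean with its SD. The fast gene Myh4 spans 6.06 to 13.07 in OSR and 10.89 to 11.73 in YR, and the slow gene Myh7 reaches 12.49 on YR array 1.

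The balance of fast and slow genes was not the same on all arrays. Over 14 fast members and 7 slow members, the fast median deviation minus the slow one was -0.12, 1.66 and 0.18 on the OSR arrays, 2.23, -0.63 and -2.88 on the OR arrays, 0.82, 1.08 and 0.19 on the YSR arrays, and -3.33, -0.29 and 0.57 on the YR arrays. YR array 1 had a slow median of 3.70 above the mean and a fast median of 0.38, and Myh7 lay 5.41 above its mean there. OR array 3 had a slow median of 1.12 and a fast median of -1.77. OR array 1 leaned the other way, with a slow median of -1.09 and a fast median of 1.14. On the 2 lowest arrays both classes were low, with a fast median of -2.54 and a slow median of -2.43 on OSR array 1, and of -3.24 and -2.62 on OR array 2.

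Single pairs of genes gave the same picture on the arrays that leaned most, but not on all arrays. The deviation of Myh4 minus that of Myh7 was 0.44, 1.48 and 0.11 in OSR, 5.20, 0.90 and -4.92 in OR, -1.39, 2.10 and 0.17 in YSR, and -4.95, -0.35 and 1.21 in YR. That of Tnnt3 minus Tnnt1 was -1.85, 1.81 and 0.29 in OSR, 1.83, -0.18 and -2.54 in OR, 1.05, 1.05 and 0.83 in YSR, and -3.30, 0.01 and 1.00 in YR. OR array 1 leaned most to the fast genes in both pairs, and YR array 1 and OR array 3 leaned most to the slow genes. The pairs had opposite signs on OSR array 1, OR array 2, YSR array 1 and YR array 2. On YSR array 1 the sign of Myh4 minus Myh7 rests on the Myh7 probe set used, since the dimmer one lay under its mean there. In OR and YR the arrays of the same group lay on either side of 0 in both pairs.

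**Figure D3:**
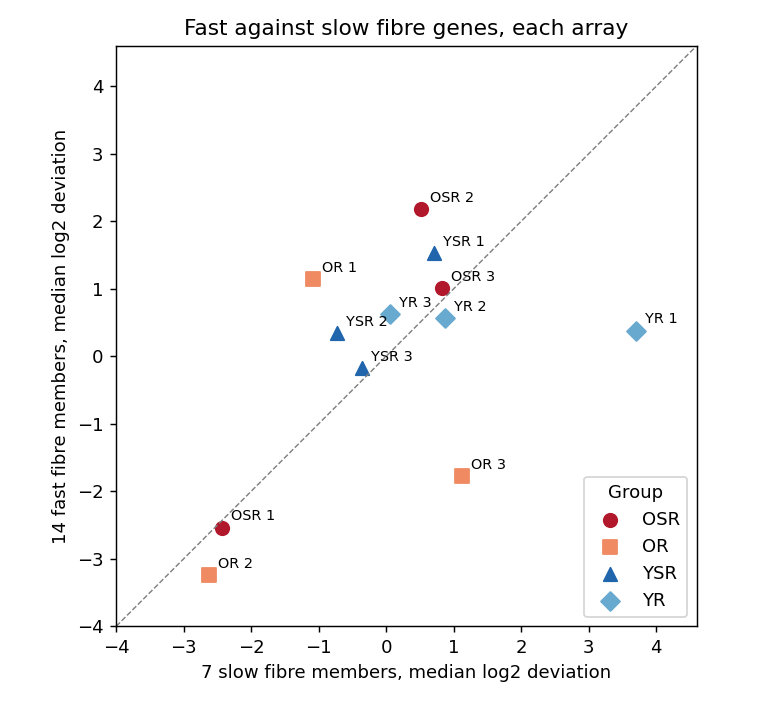
Each point is an array, placed by the median log2 deviation of the 7 slow members (horizontal axis) and of the 14 fast members (vertical axis) from their means over 12 arrays, with a symbol and colour for each group and a dashed line where both are equal. OSR array 1 and OR array 2 lie at the lower left close to the line, and YR array 1 and OR array 3 lie farthest to the right of it, at fast minus slow values of -3.33 and -2.88.

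The first comparison asked how age bears on the muscle genes under rigid fixation. Of the 37 members, 35 had a lower mean in OR than in YR, with a median difference of -2.25 (log2), against 0.04 over all probe sets tested. In the same comparison, 7 of 7 endothelial markers and 6 of 6 adipocyte markers were higher in OR, with medians of 0.93 and 2.03, and their part in the muscle values was not tested. By role the median difference was -2.30 for the 10 thick filament genes, -2.30 for the 8 thin filament genes, -2.0 for the 9 Z disc genes, -2.31 for the 5 calcium handling genes, -2.99 for the 3 genes of energy and oxygen and -1.38 for the 2 ubiquitin ligases. None of the 37 passed limma at an adjusted p of 0.05 (0.00322% of all probe sets did), and 5 had an unadjusted p under 0.05 (8.34% of all probe sets). Those 5 were Myl3, Des, Tnnc1 and Smpx, all lower, and Myh1, which was higher. Myl3, a light chain of slow and heart myosin, had the smallest p, with a mean of 6.32 in OR and 9.25 in YR, a difference of -2.93 (SE 1.07, adjusted p = 0.484).

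For 8 members every OR array lay under every YR array, namely Ckmt2, Mylpf, Mb, Des, Neb, Casq1, Fbxo32 and Smpx, against 6.04% of all probe sets. Their differences could not be told from the spread between replicates once all probe sets were accounted for. The size of the shift rested in part on OR array 2. Without that array the median difference was -1.06, with 35 of 37 members still lower and 0 at an unadjusted p under 0.05. The median difference was -3.22 without OR array 1, and the unadjusted count was then 23, as it also was without OSR array 1. That count was 9 without OR array 3 and without OSR array 2, and 1 without YR array 1. The share of all probe sets in these refits is not given here, so the counts are not read as particular to the members.

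Age under semi-rigid fixation gave smaller values. The median difference of OSR minus YSR was -0.44, with 30 of 37 members lower, against 0.00 over all probe sets. Again 0 members passed the adjusted threshold (0.00322% of all probe sets) and 1 had an unadjusted p under 0.05 (4.36%). This was Myl2, at 4.6 in OSR and 6.31 in YSR, a difference of -1.71 (SE 0.69, adjusted p = 0.959). No member had groups that did not overlap (8.98% of all probe sets). Without OSR array 1 the median turned to 0.96, it was -1.49 without OSR array 2 and -0.89 without OSR array 3, and it was 0.01 and -0.74 without YSR arrays 1 and 3.

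Fixation in old rats was compared next. OSR exceeded OR for 33 of 37 members, with a median difference of 1.12, against -0.01 over all probe sets. None passed the adjusted threshold (0% of all probe sets), and 2 had an unadjusted p under 0.05 (5.26%), Pvalb and Fbxo32. Parvalbumin (Pvalb), a calcium buffer of fast fibres, was 5.70, 10.15 and 8.75 in OSR and 8.37, 2.81 and 3.07 in OR, a difference of 3.45 (SE 1.29, adjusted p = 0.90). No member separated the groups completely (10.8% of all probe sets), and in Pvalb the first OR array lay above the first OSR array. The median was 2.67 without OSR array 1, 2.02 without OR array 1, 0.53 without OSR array 3, 0.17 without OR array 2 and 0.10 without OSR array 2. In the first of these 24 members had an unadjusted p under 0.05, and in the last 3 it was 0 members. The share of all probe sets in these refits is not given here either.

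In young rats, slow genes had larger differences between the fixations than fast genes in the median. The median difference of YSR minus YR was -0.50 over the 37 members, 28 of them lower, against 0.02 over all probe sets. For the 14 fast members it was 0.03, with 7 lower and 7 higher, and for the 7 slow members it was -1.81, with 6 lower. Without YR array 1, the array of the highest slow genes, the slow median was -0.78. The fast median was -0.42 with 11 lower without YSR array 1, and 0.38 with 3 lower without YSR array 3. The difference between the classes was not tested. Again 0 members passed the adjusted threshold (0% of all probe sets), and only Myl2 had an unadjusted p under 0.05 (4.37%), at 6.31 in YSR and 4.78 in YR, a difference of 1.53 (SE 0.69, adjusted p = 0.991). Every YSR array was above every YR array for Pvalb and under every YR array for Myl3 (9.38% of all probe sets did not overlap in either direction). The median over all members was -0.96 without YSR array 1, -0.15 without YR array 1 and -0.11 without YSR array 3.

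**Figure D4:**
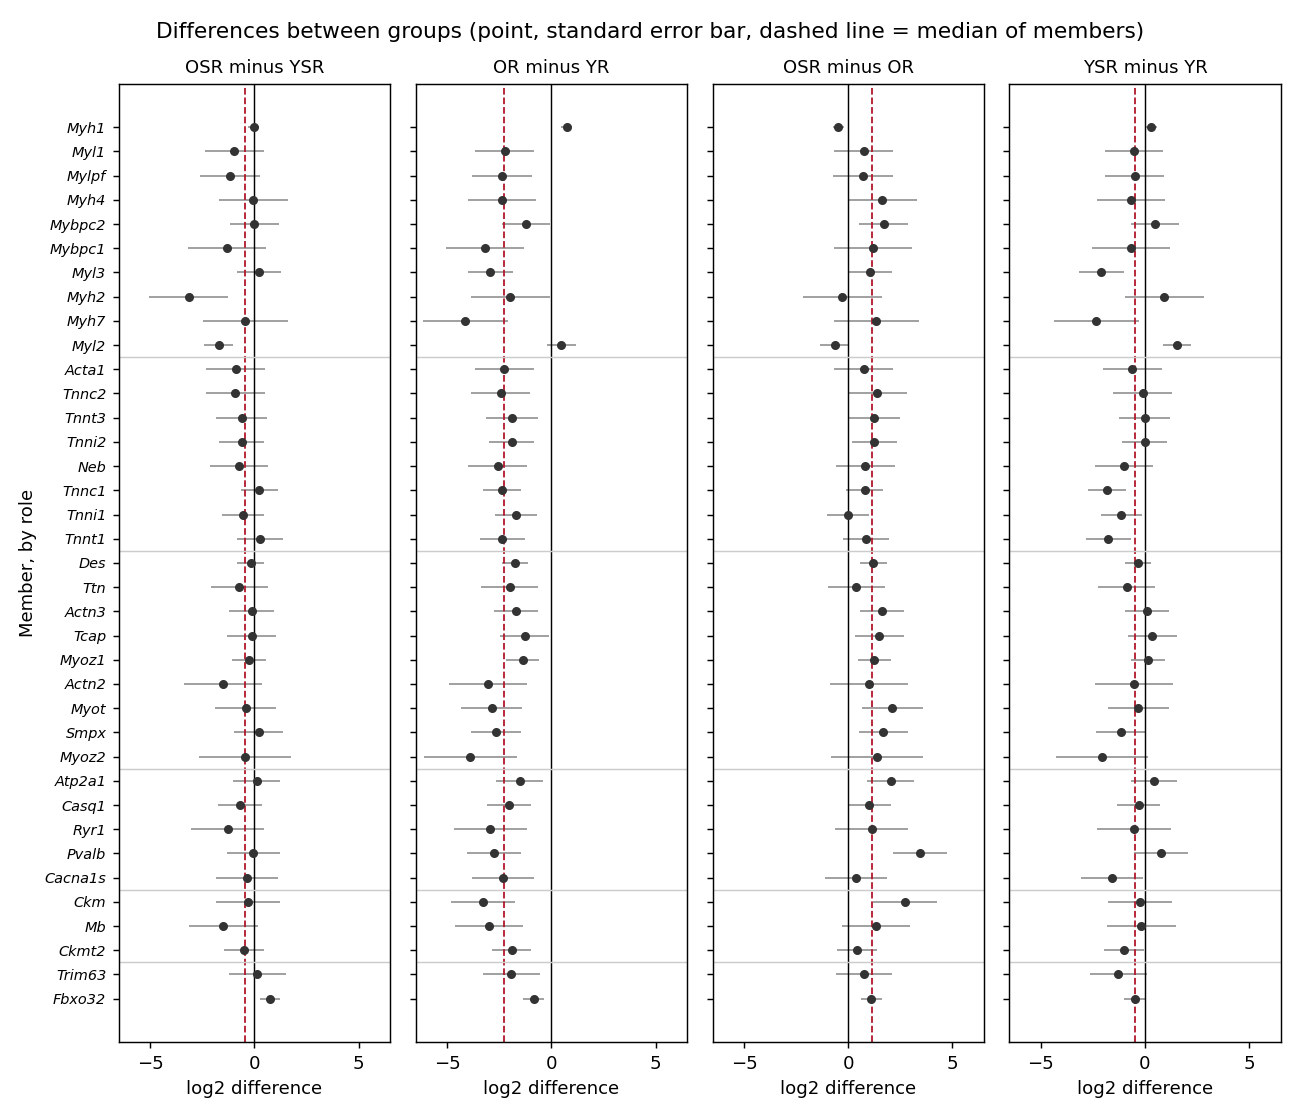
Each panel gives the log2 difference (horizontal axis) of the 37 members (rows, by role) for a pair of groups, as a point with its standard error, with a solid line at 0 and a dashed line at the median of the members. The dashed lines stand at -0.44 for OSR minus YSR, -2.25 for OR minus YR, 1.12 for OSR minus OR and -0.50 for YSR minus YR, and no member passed the adjusted threshold in any panel.

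Averaged over fixation, 36 of 37 members were lower in old than in young rats, with a median difference of -1.34, against 0.02 over all probe sets. None passed at an adjusted p of 0.05 (0.00644% of all probe sets) or at an unadjusted p of 0.05 (8.59%). Des had the smallest p, with a mean of 11.48 in old and 12.45 in young rats and a difference of -0.97 (SE 0.45, adjusted p = 0.583). Myh4 differed by -1.21 (SE 1.17, adjusted p = 0.803) and Tnnt3 by -1.25 (SE 0.88, adjusted p = 0.72). Myh7 differed by -2.28 (SE 1.44, adjusted p = 0.69) and Tnnt1 by -1.04 (SE 0.77, adjusted p = 0.737). The fast and the slow genes thus had differences of like sign, and none exceeded the spread between replicates by its test. Without OSR array 1 the difference was -0.06 for Myh4, -0.43 for Tnnt3 and -1.19 for Myh7, and without YR array 1 it was -0.46 for Tnnt1. The median over the members was -0.69 without OSR array 1 and -0.80 without OR array 2.

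Averaged over age, the difference of semi-rigid minus rigid had a median of 0.30, with 25 of 37 members higher, against 0.00 over all probe sets. Fast and slow members lay on opposite sides of 0 in this average. The fast median was 0.62 with 13 of 14 higher, and the slow median was -0.49 with 6 of 7 lower. In old rats alone both medians of OSR minus OR were above 0, at 1.26 for the fast and 0.86 for the slow members. There 12 of 14 fast and 5 of 7 slow members were higher. Without OR array 2 these medians were 0.37 and -0.22. The difference between the classes was not tested here either. None passed the adjusted threshold (0% of all probe sets), and 1 had an unadjusted p under 0.05 (5.73%), Pvalb at 2.10 (SE 0.92, adjusted p = 0.845). That count was 10 without OSR array 1, 6 without OR array 1 and 0 without each of the other arrays in turn (share of all probe sets in these refits not given). Myh4 differed by 0.48 (SE 1.17, adjusted p = 0.968), Tnnt3 by 0.61 (SE 0.88, adjusted p = 0.936), Myh7 by -0.49 (SE 1.44, adjusted p = 0.973) and Tnnt1 by -0.45 (SE 0.77, adjusted p = 0.949). The median over all members was 1.07 without OSR array 1, 0.70 without OR array 1, 0.55 without YR array 1 and 0.51 without YSR array 3. It was 0.06, 0.13 and 0.15 without OSR array 3, YR array 2 and YR array 3, and -0.22, -0.20 and -0.03 without OSR array 2, OR array 2 and YSR array 1.

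The interaction, the fixation effect in old rats minus that in young rats, had a median of 1.55 over the members, 34 of them above 0, against -0.03 over all probe sets. None passed the adjusted threshold (0% of all probe sets) and 2 had an unadjusted p under 0.05 (3.8%), in opposite directions. Fbxo32 was at 1.61 (SE 0.70, adjusted p = 0.99) and Myl2 at -2.17. The interaction of the members had a median of 3.18 without OSR array 1 and 2.62 without OR array 1, and of 0.56 and 0.47 without OR array 2 and OSR array 2.

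Further genes of mature muscle were listed in the same way, among them genes of the M band, of muscle glycolysis and of the mitochondria. Of 56 such genes 50 were measured, and OSR array 1 and OR array 2 were the 2 lowest for 39. Cox6a2, a muscle form of a cytochrome c oxidase subunit, gave 3.71, 11.82 and 10.13 in OSR, 10.33, 2.29 and 8.34 in OR, 11.32, 9.82 and 8.94 in YSR, and 11.10, 10.09 and 9.96 in YR. Eno3, the enolase of muscle, gave 8.31, 11.01 and 10.48 in OSR, 10.70, 7.81 and 9.47 in OR, 11.18, 10.34 and 9.90 in YSR, and 11.71, 10.36 and 10.82 in YR. Both had the same 2 low arrays as the members. The median difference over the 50 was -1.35 for OR minus YR with 45 lower, -0.26 for OSR minus YSR with 38 lower, 0.66 for OSR minus OR with 45 higher and -0.39 for YSR minus YR with 42 lower, and none passed the adjusted threshold in any comparison.

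Genes of muscle regeneration, which myoblasts switch on when they build new fibres, overlapped this pattern in part. Of 15 listed, 11 were measured, and 6 had the same pair of lowest arrays. Myogenin (Myog), a factor of myoblast differentiation, gave 8.39, 11.29 and 11.35 in OSR, 10.33, 7.72 and 11.05 in OR, 11.32, 11.16 and 11.16 in YSR, and 13.10, 10.26 and 12.08 in YR. Embryonic myosin (Myh3) gave 2.83, 8.94 and 9.26 in OSR, 7.83, 3.78 and 10.49 in OR, 10.08, 9.11 and 8.94 in YSR, and 11.74, 7.0 and 9.86 in YR. Unlike most members, both were low on YR array 2, and both were highest on YR array 1. Over the 11 genes the median difference of OR minus YR was -1.47 with 10 lower, and that of old minus young was -1.02 with 10 lower, again with 0 past the adjusted threshold.

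Outside all muscle lists, the 8 genes whose log2 signals followed the mean of the scaled members most closely over the 12 arrays, among 9478 compared, were Tpm1, Trim54, Cmya5, Tmem38a, Mypn, Sgcb, Kcnq5 and Cap2, with Pearson's r of 0.953 to 0.986 and Spearman's rho of 0.874 to 0.972. Without OSR array 1 and OR array 2 their r was 0.845 to 0.94 over 10 arrays. Tpm1, a tropomyosin, gave 9.33, 14.25 and 13.27 in OSR, 13.44, 9.08 and 11.27 in OR, 13.89, 12.51 and 12.13 in YSR, and 13.44, 13.33 and 12.91 in YR. The genes were picked for this likeness, so that it is a description, and standing outside the lists does not make them non-muscle genes.

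Markers of other cell types were read on the same arrays, and no probe set had a signal of 0. Endothelial markers deviated upwards on the 2 arrays low in muscle genes, with medians of 0.56 on OSR array 1 and 1.24 on OR array 2, while OR array 1 stood at 0.52. Of the 7 markers, 6 were highest on OR array 2 and none on OSR array 1. Their summed signals were 3950 to 8898 in OSR, 6804 to 13195 in OR, 3851 to 4815 in YSR and 4460 to 5604 in YR. Erythroid markers had medians of 0.93 on OSR array 1 and 1.16 on OR array 2, but also 0.78 on YSR array 3 and 0.67 on YR array 2. Of the 5 markers, 4 were highest on OR array 2, while Hbb had OSR array 1 among its 2 lowest arrays. Their sums were 60213 to 74376 in OSR, 75589 to 102568 in OR, 49310 to 65241 in YSR and 55400 to 93690 in YR. Macrophage markers had medians of -0.17 and -0.69 on OSR array 1 and OR array 2. Of the 10, 7 were lowest on one of these arrays, and of those only Csf1r was lowest on OSR array 1. Their sums were 59433 to 78047 in OSR, 56012 to 80290 in OR, 66241 to 81013 in YSR and 66570 to 83301 in YR. The median of the fibroblast markers stayed within -0.44 to 0.29 on all arrays.

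Adipocyte markers had medians of 0.55 and 1.25 on the same arrays, but also of 0.85 and 1.28 on OR arrays 1 and 3. On OSR array 1 these markers were split. Adipoq, Plin1 and Cidec lay above their means there, and Fabp4, Lep and Pparg lay below. Neutrophil markers had medians of 1.37 and 0.58, and 1.77 on OR array 3. Heart muscle markers had sums of 184 to 1217 in OSR, 353 to 1338 in OR, 679 to 982 in YSR and 466 to 2944 in YR, of which Myl4, also made in embryonic skeletal muscle, was the only one with a log2 signal above 9. Smooth muscle markers, which share desmin with the members, had medians of 0.50 on OSR array 1 and 0.52 on OR array 2, but also 0.65 on OSR array 2 and 0.38 and 0.44 on OR arrays 1 and 3. In OR minus YR the median difference was 0.83 for the smooth muscle markers (7 of 9 higher), 1.49 for the neutrophil markers (4 of 6 higher) and -0.28 for the macrophage markers (3 of 10 higher), and none of these markers passed the adjusted threshold. The arrays with a large Gapdh 3′ excess, YSR array 1 and OR array 1, were not low in the members, at 1.41 and 0.80. The part of other cell types and of RNA quality in the muscle gene values was not tested.

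**Figure D5:**
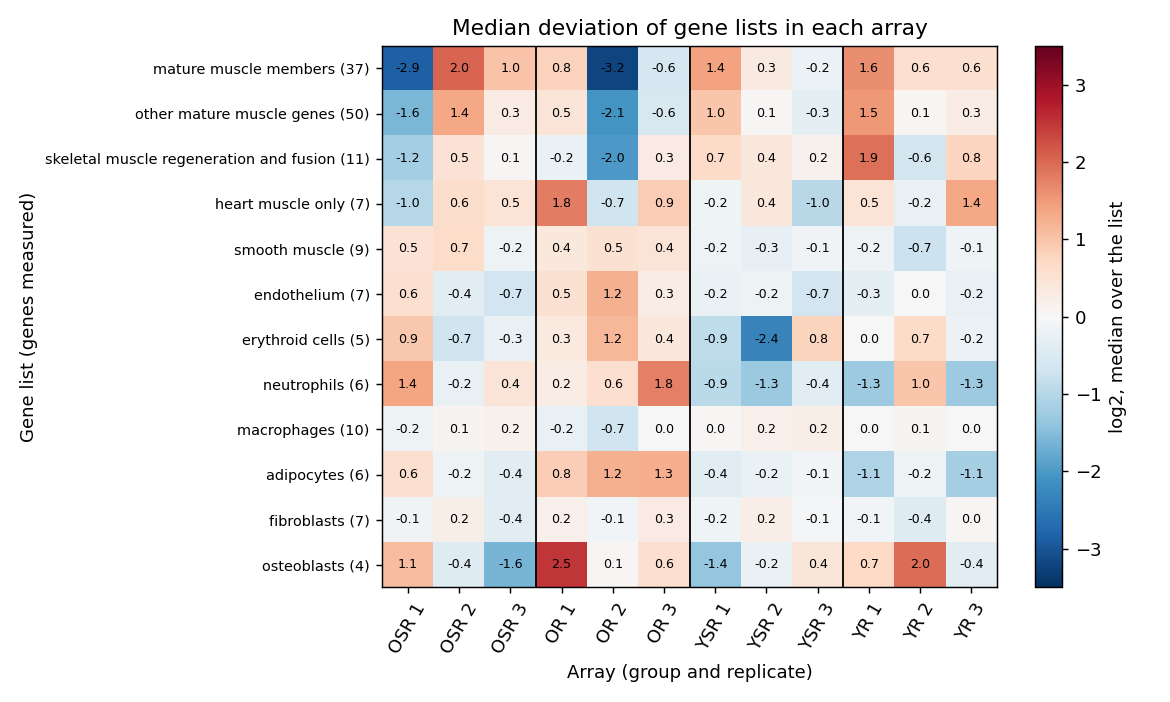
The heat map gives the median log2 deviation of each gene list (rows, with the number of genes measured) from the genes' means over 12 arrays, for each array (columns, by group and replicate), with the value printed in each cell. Mature muscle members stand at -2.85 on OSR array 1 and -3.21 on OR array 2, where endothelial markers stand at 0.56 and 1.24.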

How the data were processed

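Signal intensities, as the authors deposited them, are linear values of 31099 probe sets on 12 arrays, which share an equal 2% trimmed mean. Of the software, GCOS 1.2 stands in the submitters' notes and the PLIER algorithm in the paper's methods, and which of them made the deposited intensities is not given in the sources used here.

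A floor of 1 was set before log2. Without 57 control probe sets, 31042 were tested. Symbols came from the platform annotation (20832 probe sets with 1 symbol, 436 with several, 9831 with none), and 20758 of the 20826 single symbols outside the controls were matched to the rat gene table by gene identifier. Each member was represented by its brightest probe set with 1 symbol. Mylpf was found through a synonym, and 3 probe sets naming a member among several genes were left out. The members and all gene lists were chosen with earlier results of these data known.

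A mean for each of the 4 groups was fitted in R 4.3.3 by lmFit of limma 3.58.1, moderated by eBayes with a trend on intensity, adjusted by Benjamini-Hochberg over all probe sets, with calls at an adjusted p under 0.05. The fit was tested on simulated data. Lists were described by counts and medians, with no set test. Genes were named by role: in each, the member with the highest mean and that with the largest range (for the 10-gene roles also the second in each), Myh4, Tnnt3, Myh7 and Tnnt1, and the member of smallest p in each comparison; Pvalb by array, the members past an unadjusted p and those with separated groups were named after their values were seen. Replicates are separate pools of 3 animals. With 3 arrays a group, their number limits the precision.

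Alternatives were quantile normalization, a pseudocount of 16, dropping dim probe sets, no trend, only the pair's arrays, the methods' t-test, a replicate block, the mean over probe sets, dropping the 2 arrays with the largest Gapdh 3′ excess, and leaving out each array. Whether replicate numbers pair the arrays was checked: the median correlation of deviations was 0.0193 over 18 same-numbered pairs of arrays in different groups and 0.0196 over the other 36. Promoters were taken from RefSeq (GRCr8), 250 bases each. Plots were made with matplotlib 3.10.9, and summaries with numpy 2.4.6 and pandas 2.3.3, under Python 3.11.15.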

Additional observations from a re-analysis of the deposited data

How the results depend on the processing

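No member passed an adjusted p of 0.05 in limma or the methods' t-test in any of the 7 comparisons under the alternatives run (21 for each pair of groups, 19 for the averages and the interaction), and the smallest adjusted p of any member in any of them was 0.163. Each median difference over the members moved by less than the spread between replicates (1.72, the pooled SD of array medians), though this spread is wide. Dropping the trend, using only the pair's arrays and the methods' t-test leave the medians unchanged by construction, so they say nothing about how stable the medians are. Leaving out single arrays gave medians of -3.22 to -1.06 for OR minus YR, -1.49 to 0.96 for OSR minus YSR, 0.10 to 2.67 for OSR minus OR, -0.96 to -0.11 for YSR minus YR, -1.82 to -0.69 for old minus young, -0.22 to 1.07 for semi-rigid minus rigid and 0.47 to 3.18 for the interaction. Without YSR array 1 and OR array 1, which had the largest excess of the Gapdh 3′ control, the medians were -3.22, 0.01, 2.02, -0.96, -1.44, 0.53 and 3.04 in the same order, and the members at an unadjusted p under 0.05 numbered 24 for OR minus YR and 11 for OSR minus OR. With only the arrays of the pair in the fit, 18 had such a p for OR minus YR, against 1 by the methods' t-test. For age averaged over fixation that count was 16 without OSR array 2 and 15 without OR array 1, and for the interaction it was 20 without OSR array 1. The matching shares of all probe sets under these alternatives are not given here. These counts are therefore not read as particular to the members.

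With single arrays left out, semi-rigid minus rigid changed sign for Myh4 (-0.12 to 1.63), for Myh7 (-1.17 to 0.60) and for Tnnt1 (-0.99 to 0.12). The Myl2 difference of YSR minus YR was -0.42 with the mean over its 2 probe sets, which disagree. Replicate numbers do not pair these arrays. Every group held the same replicate numbers, so the replicate block could not change the medians. With it, 4 members had an unadjusted p under 0.05 for OR minus YR. Of the 37 members, 31 passed the filter on dim probe sets.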

Other observations

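Among muscle genes outside the member list, Pgam2, the phosphoglycerate mutase of muscle, had log2 signals of 2.51, 9.41 and 8.10 in OSR, 7.93, 1.43 and 7.45 in OR, 9.64, 7.62 and 6.99 in YSR, and 9.21, 8.27 and 8.13 in YR. Ldb3, a PDZ and LIM protein of the Z disc, had 6.53, 8.91 and 7.99 in OSR, 8.06, 6.28 and 7.98 in OR, 9.74, 7.82 and 7.60 in YSR, and 10.03, 8.53 and 8.29 in YR. Both were lowest on OSR array 1 and OR array 2. The acetylcholine receptor gamma subunit (Chrng), which marks immature or denervated fibres, differed from them, with 4.44, 4.47 and 4.45 in OSR, 4.52, 3.93 and 5.66 in OR, 7.61, 5.21 and 4.10 in YSR, and 8.6, 4.42 and 4.88 in YR. It was above 6 on YSR array 1 and YR array 1 only. Myod1, the factor that commits cells to the muscle lineage, had 9.13, 9.50 and 9.50 in OSR, 9.47, 7.53 and 8.35 in OR, 10.08, 10.33 and 9.81 in YSR, and 10.77, 9.73 and 10.31 in YR. This gene was picked after its values were seen, and in limma none of the 11 measured regeneration genes passed the adjusted threshold for old minus young (smallest adjusted p = 0.207).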
